A study of Mus musculus with 15 samples.

Results

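The genes described here are 9 ligands through which antigen-presenting cells, tumour cells and phagocytes exchange activating and inhibitory signals with T cells and with one another: Cd274 (PD-L1), Pdcd1lg2 (PD-L2), Cd80, Cd86, Cd40, Icosl, Cd276, Lgals9 (galectin-9) and Cd47. CD40 is itself a receptor, and is counted among the 9 ligands only for short. These 9 genes were chosen by name, with earlier results of these data known. Each was found once, by Ensembl gene identifier, among the 17712 genes of the deposited expression table. The RNA came from 15 subcutaneous MC38 tumours, a mouse colon carcinoma line, in C57BL/6 mice, taken 24 h after an injection of 100 µL into tumours of about 5 mm. Vehicle (PBS with 5% DMSO and 5% glucose) was given to 3 tumours, 50 µg of BO-112 to 4, 100 µg of DMXAA to 4, and both agents at these doses to 4. BO-112 is a double-stranded RNA mimic (poly I:C) bound to a carrier, and DMXAA activates mouse STING, the adaptor of cytosolic DNA sensing. The labels number the tumours of a group as biological replicates and give neither the age nor the sex of the mice.

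T cells need a costimulatory signal beside the antigen receptor, which CD80 and CD86 give through CD28, and the same ligands inhibit through CTLA-4. PD-L1 and PD-L2 both bind PD-1, an inhibitory receptor of T cells. PD-L1 is made by tumour cells and by many host cells and is induced by interferons, while PD-L2 is largely a product of macrophages and dendritic cells and is known for its induction by interleukin 4. CD40 on antigen-presenting cells receives help from T cells, and CD47 signals to phagocytes through SIRPα not to engulf the cell that carries it.

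Levels are given in CPM, the reads of a gene after scaling for the size of its library, and ± beside a level is the SD over the tumours of a group. Differences are on the log2 scale with their SE, from 1 limma fit to the 17712 genes in all 15 tumours, and a gene is said to have risen or fallen where its p-value, adjusted over all genes by the Benjamini-Hochberg method, was below 0.05. The libraries held 12725316 to 19660511 reads, and the lowest count of any of the 9 genes in any tumour was 48 reads (Pdcd1lg2 in a DMXAA tumour). In whole tumours, more cells that carry a transcript and more transcript per cell cannot be told apart. Skeletal muscle genes were high in vehicle tumour 2, BO-112 tumour 1 and DMXAA tumours 1 and 3. DMXAA tumour 2 stood apart from its group, with a median correlation of 0.933 against 0.966 to 0.968 for the other DMXAA tumours. Short transcripts (the shortest 10% of genes) were high and long ones low in DMXAA tumours 2 and 3, by median log2 differences of 0.64 and -0.61 and of 0.43 and -0.36 from the other libraries. Where leaving out these tumours ended a call or gave one, the value is given beside the result.

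Cd274 and Pdcd1lg2 encode the ligands of 1 receptor and lie near each other on chromosome 19, yet they stood in opposite order across the groups, and Lgals9 had the smallest adjusted p of the 9 with BO-112. The 250 bases before the start of these 3 genes are shown for that reason, from RefSeq on the mouse build GRCm38.p6 and on the strand of the gene, at chr19:29367188-29367437 (Cd274, plus strand), chr19:29410669-29410918 (Pdcd1lg2, plus strand) and chr11:78984925-78985174 (Lgals9, minus strand). Capitals mark a match to a searched motif.
Cd274: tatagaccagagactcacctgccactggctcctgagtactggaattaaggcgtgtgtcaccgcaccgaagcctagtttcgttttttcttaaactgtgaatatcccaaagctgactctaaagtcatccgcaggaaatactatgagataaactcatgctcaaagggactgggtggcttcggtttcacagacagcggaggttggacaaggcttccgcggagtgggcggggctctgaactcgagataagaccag
Pdcd1lg2: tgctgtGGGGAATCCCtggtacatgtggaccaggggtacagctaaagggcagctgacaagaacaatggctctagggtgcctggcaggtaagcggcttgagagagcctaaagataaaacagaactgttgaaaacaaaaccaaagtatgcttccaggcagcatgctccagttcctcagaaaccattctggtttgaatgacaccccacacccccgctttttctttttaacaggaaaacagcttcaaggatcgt
Lgals9: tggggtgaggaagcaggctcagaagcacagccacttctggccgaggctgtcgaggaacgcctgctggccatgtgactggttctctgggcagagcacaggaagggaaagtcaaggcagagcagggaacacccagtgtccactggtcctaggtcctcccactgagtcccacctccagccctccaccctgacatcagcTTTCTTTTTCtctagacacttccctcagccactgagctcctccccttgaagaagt
The motifs searched on both strands were the interferon-stimulated response element (GAAA, any 2 bases, then GAAA again), the gamma-activated site (TTCNNNGAA) and the kappaB consensus, which do not share letters at the matches found. Lgals9 held 1 interferon-stimulated response element on the other strand, printed on the strand of the gene as TTTCTTTTTC, 55 bases before the start. Of 32851 windows of this length, 2.98% held one. Pdcd1lg2 held 1 kappaB match, GGGGAATCCC, 244 bases before the start, and Icosl held another, GGAGCTCCCC, 111 bases before its start, against 7.25% of windows. Cd274, Cd80, Cd276 and Cd47 held no match to any of the 3 motifs in this window, and no gene held a gamma-activated site, which 7.02% of windows had. Sequences were found for 7 of the 9 genes and not for Cd86 or Cd40. These matches describe letters and not binding.

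BO-112 alone raised 6 of the 9 ligands over vehicle: Cd274, Cd80, Cd86, Cd40, Lgals9 and Cd47. Over all genes, 7.64% were called higher in this comparison and 4.31% lower, and no ligand was called lower. The same 6 had BO-112 tumours that all lay above all vehicle tumours, as did 18.1% of all genes. The median difference of the 9 ligands was 1.16, against -0.04 over all genes. Pdcd1lg2 and Icosl had lower means with BO-112, and neither they nor Cd276 passed the test. Pdcd1lg2 passed as lower without DMXAA tumours 2 and 3 (-0.92, limma adjusted p = 0.042) and with only these groups fitted (limma adjusted p = 0.0304). Icosl passed as lower with only these groups fitted and with array quality weights (limma adjusted p = 0.0237 and 0.0183). These settings also called more genes in either direction. There were 4439 without DMXAA tumours 2 and 3, 4320 with only these groups fitted and 5006 with array quality weights, against 2116 as reported.

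Cd274, the main ligand of PD-1, stood at 63.8, 91.8 and 34.8 CPM in vehicle tumours and at 284, 309, 297 and 306 CPM in BO-112 tumours. Every BO-112 tumour lay above every vehicle tumour, and the BO-112 tumours were close to each other while the vehicle tumours were spread wide. With DMXAA it stood at 126, 43.4, 45.6 and 123 CPM, and with both agents at 180, 202, 122 and 208 CPM. DMXAA tumours fell into a low pair (tumours 2 and 3) inside the vehicle range and a high pair (tumours 1 and 4) above it. Tumours with both agents lay above the vehicle range and below the BO-112 range, and the lowest of them lay just under the highest DMXAA tumour. Cd274 rose by a log2 difference of 2.34 ± 0.38 (SE) with BO-112 against vehicle (limma adjusted p = 0.000806) and by 1.57 ± 0.38 with both agents (limma adjusted p = 0.0383). With DMXAA the difference was 0.34 ± 0.38 (limma adjusted p = 0.617), with a 95% interval of -0.48 to 1.15. Without DMXAA tumours 2 and 3 that difference was 1.08 (limma adjusted p = 0.15). A gene model on the opposite strand, AC119228.1, shares 511 exon bases with Cd274 and had means of 7.56, 18.4, 4.17 and 12.4 CPM in the vehicle, BO-112, DMXAA and combined groups. The strand setting of the counting is not given in the sources used here, so reads of the shared stretch cannot be told apart.

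Pdcd1lg2, the other ligand of PD-1, stood at 7.47, 11.3 and 17.4 CPM in vehicle tumours and at 5.21, 7.57, 6.12 and 5.36 CPM with BO-112. The groups overlapped through 1 tumour each, since vehicle tumour 1 lay just under BO-112 tumour 2. It stood at 9.48, 14.8, 3.33 and 8.48 CPM with DMXAA and at 4.86, 12.5, 7.02 and 6.13 CPM with both agents. All 4 groups overlapped. The difference of BO-112 from vehicle was -0.92 ± 0.43 (limma adjusted p = 0.186), with a 95% interval of -1.83 to -0.01. The difference with DMXAA was -0.52 and with both agents -0.66 (limma adjusted p = 0.486 and 0.667).

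**Figure D1:**
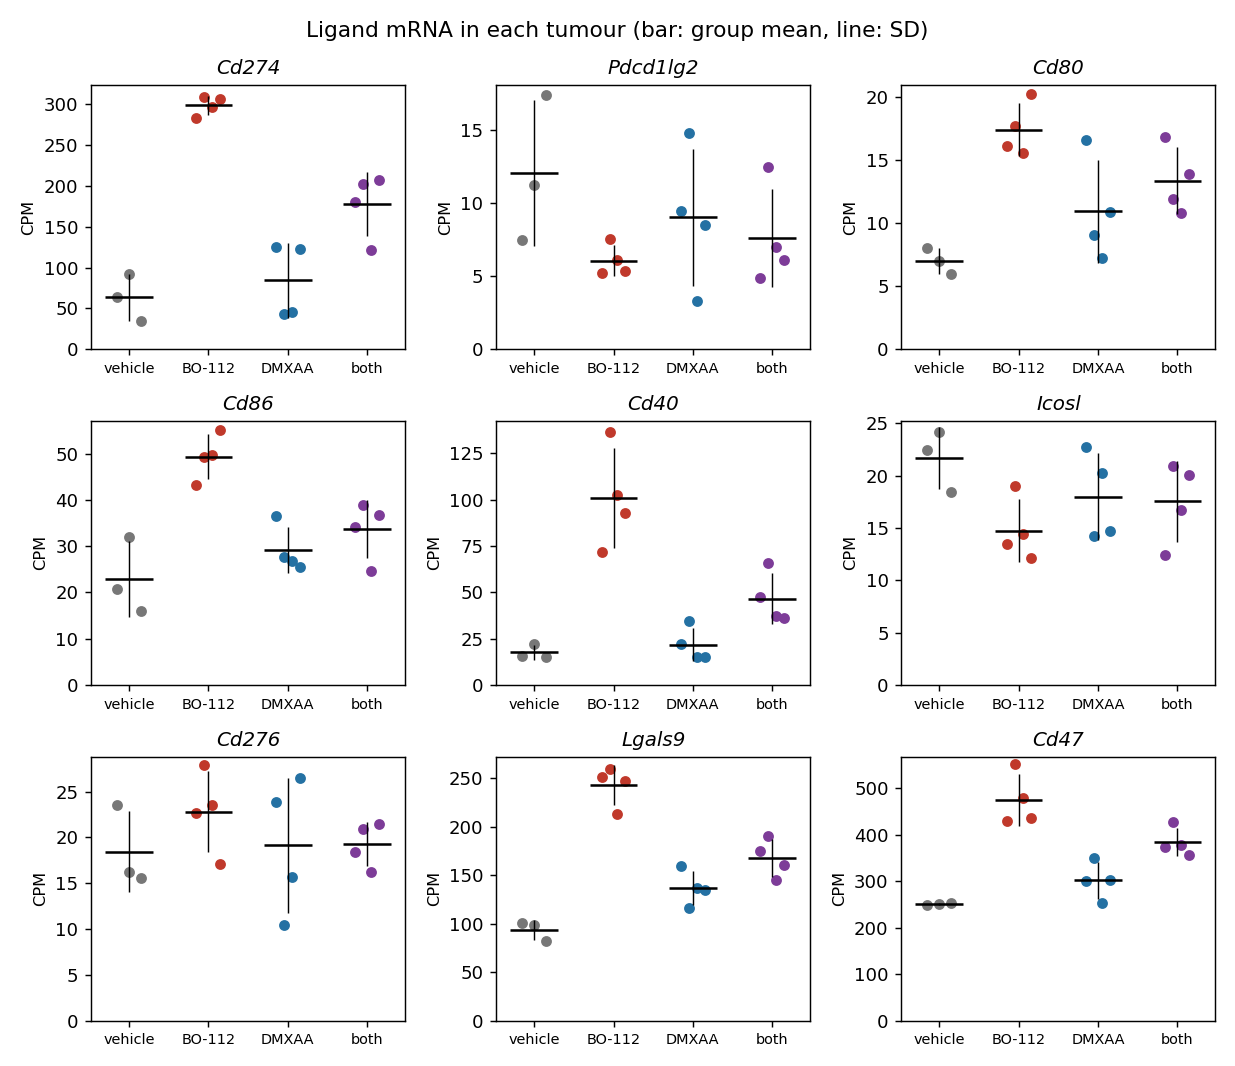
Level of each of the 9 ligands in every tumour, in CPM on a linear axis from 0, by group; points are tumours, horizontal bars are group means and vertical lines the SD. Cd274 lies between 284 and 309 CPM in the 4 BO-112 tumours and between 34.8 and 91.8 CPM in the 3 vehicle tumours, while the groups overlap for Pdcd1lg2.

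Within a tumour, the ratio of Cd274 to Pdcd1lg2 set the 2 ligands of PD-1 against each other free of library scaling. Cd274 exceeded Pdcd1lg2 by a factor of 8.53, 8.15 and 2.00 in vehicle tumours and by 54.5, 40.8, 48.5 and 57.2 in BO-112 tumours. The factor was 13.2, 2.93, 13.7 and 14.5 with DMXAA and 37.0, 16.2, 17.4 and 33.9 with both agents. The 4 BO-112 tumours lay above the other 11, and the combined group lay between them and the single DMXAA and vehicle tumours with no overlap. Mean log2 ratios were 2.37 ± 1.19 (SD, n = 3) with vehicle, 5.63 ± 0.22 (SD, n = 4) with BO-112, 3.22 ± 1.12 (SD, n = 4) with DMXAA and 4.60 ± 0.62 (SD, n = 4) with both. The ratio was looked at because the 2 genes stood in opposite order, so it is given with no test.

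**Figure D2:**
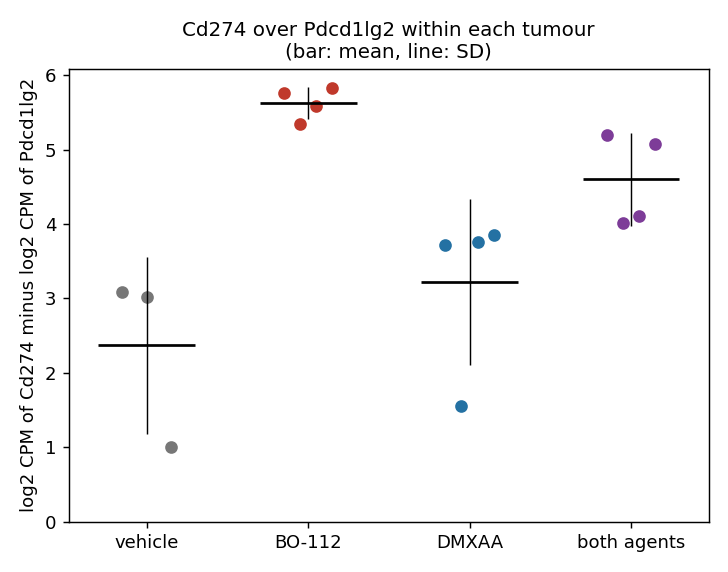
Log2 ratio of Cd274 to Pdcd1lg2 in each tumour, by group; points are tumours, bars the group means and vertical lines the SD. BO-112 tumours lie between 5.34 and 5.83, and vehicle tumours between 1.00 and 3.09.

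Cd80 and Cd86, the ligands of CD28 and CTLA-4, both rose with BO-112. Cd80 stood at 8.04, 7.02 and 5.93 CPM in vehicle tumours and at 16.1, 17.7, 15.6 and 20.2 CPM with BO-112. DMXAA tumours had 16.6, 9.06, 7.21 and 10.8 CPM of Cd80, and tumours with both agents had 16.8, 11.9, 10.8 and 13.8 CPM. BO-112 and combined tumours all lay above vehicle, whereas DMXAA tumours ran from within the vehicle range up to the BO-112 range. The difference from vehicle was 1.31 ± 0.24 with BO-112 (limma adjusted p = 0.00175), 0.58 ± 0.24 with DMXAA (limma adjusted p = 0.24) and 0.92 ± 0.24 with both agents (limma adjusted p = 0.0539).

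Cd86 stood at 20.6, 32.0 and 16.0 CPM in vehicle tumours and at 43.2, 49.3, 49.6 and 55.1 CPM with BO-112. It stood at 36.5, 27.7, 26.7 and 25.5 CPM with DMXAA and at 34.0, 39.0, 24.7 and 36.8 CPM with both agents. BO-112 tumours lay above those of every other group, and the other groups overlapped one another. Cd86 rose by 1.16 ± 0.21 with BO-112 (limma adjusted p = 0.00197). The differences with DMXAA and with both agents, 0.39 ± 0.21 and 0.60 ± 0.21, did not pass the test (limma adjusted p = 0.321 and 0.213). The log2 ratio of Cd80 to Cd86 had means of -1.65, -1.50, -1.47 and -1.33 in the vehicle, BO-112, DMXAA and combined groups, with ranges that overlapped for every pair of groups.

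Cd40, the receptor through which T cells license antigen-presenting cells, had the largest difference of the 9 with BO-112. It stood at 15.5, 22.1 and 15.1 CPM in vehicle tumours and at 71.7, 136, 103 and 93.0 CPM with BO-112. DMXAA tumours had 22.2, 34.3, 15.3 and 15.1 CPM, and tumours with both agents had 47.6, 65.6, 37.1 and 36.0 CPM. The BO-112 group lay wholly above the combined group, and the combined group lay wholly above DMXAA and vehicle, which overlapped. Cd40 rose by 2.50 ± 0.29 with BO-112 (limma adjusted p = 5.13e-05) and by 1.38 ± 0.29 with both agents (limma adjusted p = 0.0168), and the DMXAA difference was 0.24 ± 0.29 (limma adjusted p = 0.642).

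Icosl, the ligand of ICOS, stood at 22.4, 24.2 and 18.4 CPM in vehicle tumours and at 13.5, 19.0, 14.4 and 12.1 CPM with BO-112. The ranges overlapped, since the lowest vehicle tumour lay just under the highest BO-112 tumour, and the difference of -0.56 ± 0.22 did not pass the test (limma adjusted p = 0.106). Its means were 18.0 ± 4.18 CPM with DMXAA and 17.5 ± 3.86 CPM with both agents (SD, n = 4 each). Cd276 (B7-H3), often carried by tumour cells and stroma, had the closest group means of the 9, at of 18.5 ± 4.43, 22.8 ± 4.46, 19.1 ± 7.36 and 19.3 ± 2.42 CPM in the vehicle, BO-112, DMXAA and combined groups. Its difference with BO-112 was 0.31 ± 0.27 (limma adjusted p = 0.527), with a 95% interval of -0.27 to 0.89.

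Lgals9, which encodes a secreted lectin that binds TIM-3 among other partners, stood at 101, 98.9 and 81.9 CPM in vehicle tumours and at 251, 260, 213 and 247 CPM with BO-112. It stood at 159, 116, 137 and 135 CPM with DMXAA and at 175, 191, 146 and 161 CPM with both agents. All 3 treated groups lay above the vehicle tumours, and the BO-112 tumours lay above all others. Lgals9 rose by 1.37 ± 0.13 with BO-112 (limma adjusted p = 6.36e-06) and by 0.84 ± 0.13 with both agents (limma adjusted p = 0.00158). With DMXAA the difference was 0.54 ± 0.13 and just missed the threshold (limma adjusted p = 0.0537), and without DMXAA tumours 2 and 3 it was 0.65 (limma adjusted p = 0.016).

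Cd47, the signal that restrains phagocytes, was already abundant, at 248, 251 and 254 CPM in vehicle tumours, and stood at 429, 552, 479 and 436 CPM with BO-112. It stood at 301, 349, 253 and 303 CPM with DMXAA and at 374, 426, 378 and 357 CPM with both agents. The vehicle tumours were nearly level, the BO-112 tumours lay above all others, and the combined group lay above DMXAA. Cd47 rose by 0.91 ± 0.12 with BO-112 (limma adjusted p = 0.000171) and by 0.61 ± 0.12 with both agents (limma adjusted p = 0.0114), and the DMXAA difference was 0.26 ± 0.12 (limma adjusted p = 0.283).

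Per kilobase of exon, the most abundant ligands in vehicle tumours were Lgals9 and Cd47, at mean levels of 43.9 and 40.0 CPM per kb, followed by Cd274 at 17.5. The other 6 lay between 1.89 (Cd80) and 6.25 (Cd86) CPM per kb. With BO-112, Cd274 stood at 82.5 CPM per kb, between Lgals9 at 114 and Cd47 at 75.5, and Cd40 followed at 29.6. Pdcd1lg2 had the lowest level of the 9 with BO-112, at 3.09 CPM per kb.

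DMXAA alone called 0 of the 9 ligands against the same vehicle tumours, and 1.25% of all genes were called in either direction. At an unadjusted limma p under 0.05 there were 2 ligands and 18.1% of genes, and limma-voom called 0 of the 9. Lgals9 was the 1 ligand whose DMXAA tumours all lay above vehicle, as did 6.52% of genes. The median difference was 0.25, against 0.01 over all genes. Without DMXAA tumours 2 and 3, Lgals9 and Cd80 were called, the latter with a difference of 0.94 (limma adjusted p = 0.0295). That setting called 373 genes, against 221 as reported.

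Both agents together raised 4 of the 9 ligands over vehicle, Cd274, Cd40, Lgals9 and Cd47, against 2.49% of all genes. Combined and vehicle tumours did not overlap for these 4 and for Cd80, against 9.92% of genes with the combined tumours above. The median difference was 0.61, against -0.01 over all genes. The call for Lgals9 held in each of 27 analyses, that for Cd47 in 24 and that for Cd40 in 23. The call for Cd274 held in 16, and its adjusted p reached 0.241 without vehicle tumour 3, where the difference was 1.19. Without vehicle tumour 1 or vehicle tumour 3 only Lgals9 was called, and without combined tumour 1 or combined tumour 2 only Lgals9 and Cd47. Without the 4 tumours high in muscle genes the call for Cd47 was lost (0.61, limma adjusted p = 0.057) and Cd86 was called (0.87, limma adjusted p = 0.0443). Leaving out vehicle tumour 2 alone also gave a call for Cd86 (limma adjusted p = 0.0301). Without DMXAA tumours 2 and 3 Cd80 was called too (0.92, limma adjusted p = 0.00521).

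**Figure D3:**
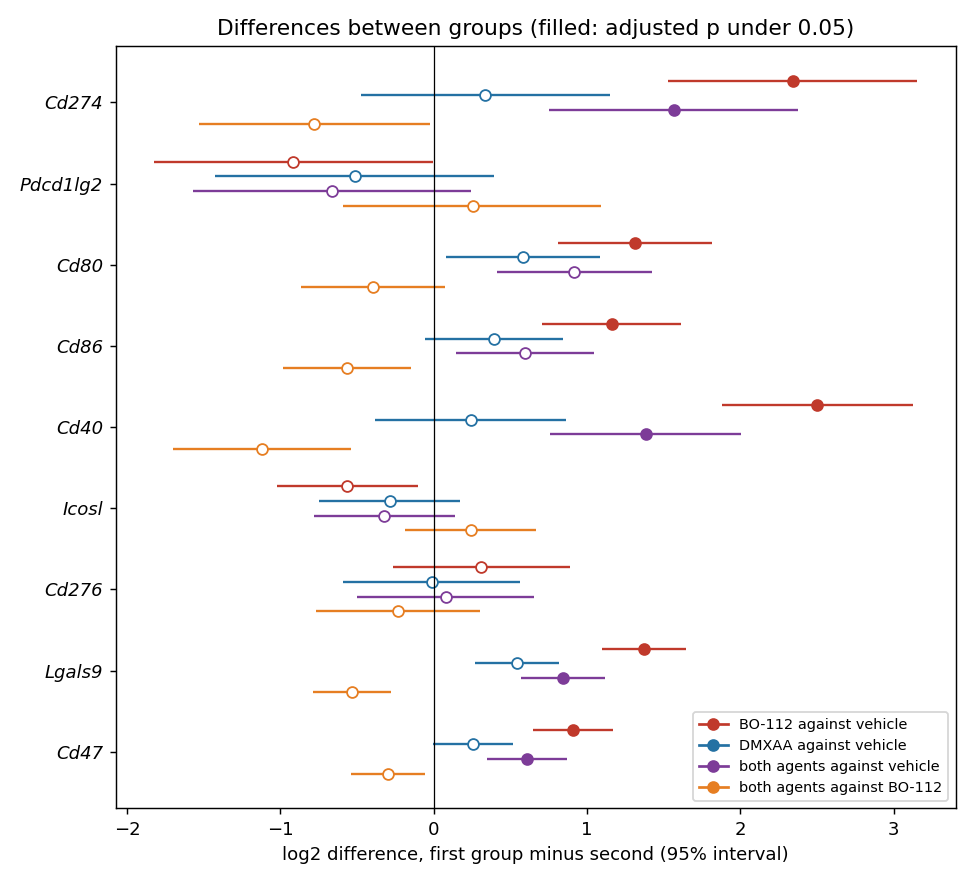
Log2 difference of each ligand between the groups named in the key, with 95% intervals from limma; filled points had an adjusted p under 0.05. Against the 3 vehicle tumours that these comparisons share, BO-112 has 6 filled points, DMXAA 0 and both agents 4, and both agents against BO-112 has 0.

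Adding DMXAA to BO-112 gave lower means for 7 of the 9 ligands than BO-112 alone, and 0 of them passed the test, as did 0% of all genes. At an unadjusted limma p under 0.05 there were 5 ligands and 9.54% of genes, and limma-voom called 0. The combined tumours all lay below the BO-112 tumours for Cd274, Cd86, Cd40, Lgals9 and Cd47, against 6.11% of genes. Differences of the combined group from BO-112 were -0.78 ± 0.35 for Cd274, -0.57 ± 0.20 for Cd86, -1.12 ± 0.27 for Cd40, -0.53 ± 0.12 for Lgals9 and -0.30 ± 0.11 for Cd47. Their limma adjusted p lay between 0.139 (Lgals9) and 0.504 (Cd274), and without DMXAA tumours 2 and 3 that of Lgals9 was 0.0302. Against DMXAA alone the combined group called 0 of the 9, where 0.886% of genes were called in either direction, with 4 ligands and 23.9% of genes at an unadjusted limma p under 0.05 and 0 ligands by limma-voom. Cd40 and Cd47 were the 2 ligands whose combined tumours all lay above DMXAA, against 4.54% of genes, with differences of 1.14 ± 0.27 and 0.35 ± 0.11 (limma adjusted p = 0.0621 and 0.116).

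BO-112 exceeded DMXAA in the same 6 ligands that it raised over vehicle, where 11.2% of genes were called higher, and 5 of them did not overlap, against 12.1% of genes. The differences were 2.01 ± 0.35 for Cd274, 0.73 ± 0.22 for Cd80, 0.77 ± 0.20 for Cd86, 2.26 ± 0.27 for Cd40, 0.83 ± 0.12 for Lgals9 and 0.66 ± 0.11 for Cd47. Their limma adjusted p ran from 0.000124 (Cd40) to 0.0305 (Cd80, whose ranges overlapped). Without DMXAA tumours 2 and 3 the calls for Cd80 and Cd86 were lost, at differences of 0.37 and 0.69 (limma adjusted p = 0.269 and 0.101), and the difference for Cd274 was 1.27 (limma adjusted p = 0.0266). Without the 4 tumours high in muscle genes the calls for Cd80 and Cd47 were lost, at 0.84 and 0.58 (limma adjusted p = 0.0621 and 0.0509). The call for Cd80 was also lost with only these groups fitted and with array quality weights (limma adjusted p = 0.0961 and 0.0815), and it held in 18 of the 27 analyses. The lost calls with 1 tumour left out were those without BO-112 tumour 1, 2 or 4 and without DMXAA tumour 2 or 3, at differences of 0.56 to 0.77.

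Whether the change with DMXAA depended on BO-112 was tested by the interaction, which subtracts the difference between DMXAA and vehicle from that between the combined group and BO-112. Lgals9 was the 1 ligand called, with an interaction of -1.08 ± 0.17 (limma adjusted p = 0.0106), and 1.15% of all genes were called lower. The DMXAA difference of Lgals9 was 0.54 without BO-112 and -0.53 with it. The interaction was -0.86 with scaling by total count (limma adjusted p = 0.075) and -0.98 without the 4 tumours high in muscle genes (limma adjusted p = 0.113), so the call ended there. Interactions of Cd40, Cd274, Cd80, Cd86 and Cd47 were -1.36, -1.11, -0.98, -0.96 and -0.56 and did not pass (limma adjusted p = 0.114 to 0.337). Without DMXAA tumours 2 and 3 those of Cd274, Cd80 and Cd47 passed too, at -1.85, -1.34 and -0.57 (limma adjusted p = 0.0339, 0.0116 and 0.0327). That setting called 710 genes in either direction, against 239 as reported. Leaving out vehicle tumour 2 alone gave a call for the interaction of Cd86 (limma adjusted p = 0.0243).

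The order of the 4 group means was BO-112, both agents, DMXAA, vehicle for Cd274, Cd80, Cd86, Cd40, Lgals9 and Cd47, an order that 8.7% of all genes had. Pdcd1lg2 and Icosl had the exact reverse, as did 7.7% of genes. Neighbours in this order that did not overlap were BO-112 and both agents for 5 of the 6, both agents and DMXAA for Cd40 and Cd47, and DMXAA and vehicle for Lgals9.

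Tumours of 1 group also differed from each other in the ligands they carried. After each group's mean was taken away, the log2 levels of Cd274 went with those of Cd276, Cd80, Cd86 and Lgals9 over the 15 tumours (Pearson r = 0.711, 0.705, 0.669 and 0.657). Cd40 went with Cd47 (r = 0.817) and Pdcd1lg2 (r = 0.63), and Cd47 with Pdcd1lg2 (r = 0.817). Between Cd274 and Cd40, Cd47 or Pdcd1lg2 it was 0.028, 0.04 and 0.008, and between Cd40 and Cd86 it was 0.484. Part of this pattern rested on DMXAA tumours 2 and 3. Without them, over 13 tumours, Cd274 had r = 0.332 with Cd276, 0.424 with Cd80, 0.883 with Cd86, 0.636 with Lgals9 and 0.452 with Cd40. Cd40 then had r = 0.761 with Cd47, 0.646 with Cd86 and 0.479 with Pdcd1lg2, and Cd47 had 0.641 with Pdcd1lg2. These values are descriptions, since each point shares its library, depth and scaling with the gene it is set against.

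**Figure D4:**
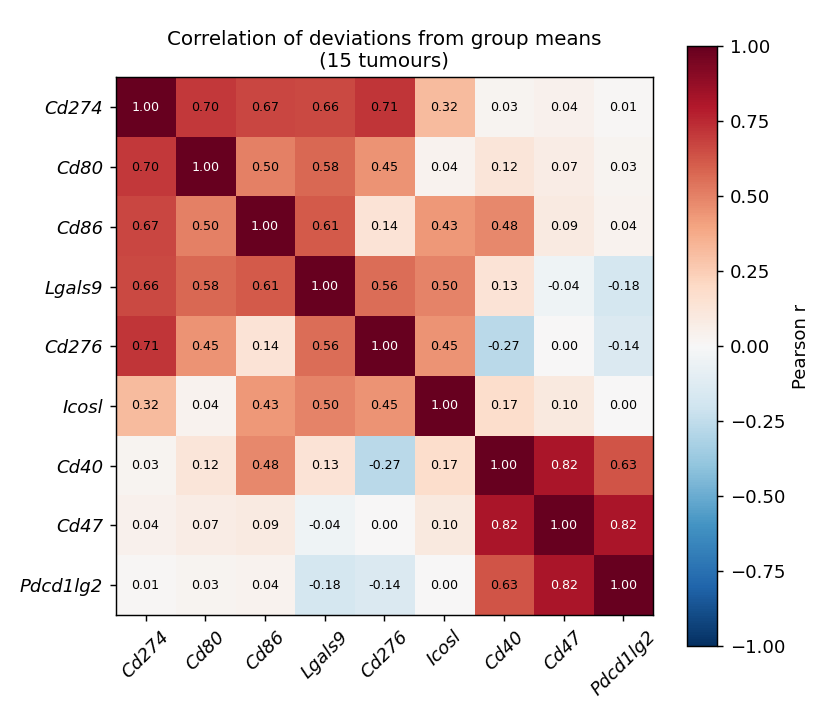
Pearson r between the log2 levels of each pair of ligands over the 15 tumours after the mean of each group was subtracted; colour gives r from -1 to 1. Cd274 has r of 0.657 to 0.711 with Cd80, Cd86, Cd276 and Lgals9 and 0.028 with Cd40, which has 0.817 with Cd47. Without DMXAA tumours 2 and 3 (not drawn), Cd274 has 0.332 with Cd276, 0.424 with Cd80 and 0.452 with Cd40. It then has 0.883 with Cd86 and 0.636 with Lgals9.

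Of the receptors of these ligands, limma called 0 in each of the 7 comparisons, and so did limma-voom. Of 7 listed, 6 were measured. The remaining gene, Cd40lg, encodes the ligand of the receptor CD40 and has no row in the table used here. At an unadjusted limma p under 0.05 there were 0 with BO-112, 1 with DMXAA and 0 with both agents against vehicle. The shares of all genes were 26.2%, 18.1% and 11.5%. Pdcd1 (PD-1) had means of 6.39 CPM with vehicle and 10.0 CPM with BO-112, a difference of 0.84 ± 0.40 (limma adjusted p = 0.201). Icos, the receptor of ICOSL, had 12.7 and 20.9 CPM, a difference of 0.79 (limma adjusted p = 0.244). Ctla4 and Cd28, the inhibitory and activating receptors of CD80 and CD86, had differences of 0.55 and 0.45. Havcr2 (TIM-3) and Sirpa, the phagocyte receptor of CD47, had differences of 0.10 and -0.01.

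Of 12 genes on the route from interferon gamma to PD-L1, 4 rose with BO-112 and none fell, where 7.64% of all genes rose and 4.31% fell. Limma and limma-voom called 0 of the 12 with DMXAA or with both agents against vehicle. At an unadjusted limma p under 0.05 there were 1 and 2, against 18.1% and 11.5% of all genes. Jak2, a kinase of the interferon gamma receptor, rose by 1.10 ± 0.18 (limma adjusted p = 0.000909). Stat3, a transcription factor switched on by such kinases, rose by 0.71 ± 0.13 (limma adjusted p = 0.00237). The median difference of the list was 0.39 with BO-112, 0.06 with DMXAA and 0.19 with both. Ifng itself stood at 1.29 ± 1.24 CPM with vehicle (SD, n = 3) and at 0.807 ± 0.437, 3.08 ± 2.32 and 0.822 ± 0.367 CPM with BO-112, DMXAA and both (SD, n = 4 each). Its difference with BO-112 was 0.16 ± 0.90 (limma adjusted p = 0.942), and with DMXAA 1.96 ± 0.90 (limma adjusted p = 0.272). The log2 difference and the CPM means with BO-112 point in opposite directions, since 1 vehicle tumour stood at 0.0593 CPM and weighs more on the log2 scale.

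Of 11 measured genes of CD40 signalling, 5 rose with BO-112, 0 with DMXAA (1 at an unadjusted limma p under 0.05 and 0 by limma-voom) and 2 with both agents, and none fell. Among all genes 7.64% rose with BO-112 and 2.49% with both agents, and 18.1% had an unadjusted limma p under 0.05 with DMXAA. Tnfaip3, which encodes the brake A20 on NF-kappaB, had means of 37.5 CPM with vehicle, 167 with BO-112, 38.8 with DMXAA and 95.3 with both. It rose by 2.15 ± 0.21 with BO-112 (limma adjusted p = 1.14e-05) and by 1.33 ± 0.21 with both agents (limma adjusted p = 0.00215). Traf1, a signalling adaptor of the CD40 family of receptors, rose by 1.05 ± 0.12 with BO-112 (limma adjusted p = 4.78e-05) and by 0.48 ± 0.12 with both agents (limma adjusted p = 0.0469). Relb, an NF-kappaB subunit, rose by 0.98 ± 0.13 with BO-112 (limma adjusted p = 0.000167). The median difference of the list was 0.55 with BO-112, -0.06 with DMXAA and 0.35 with both.

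Of 13 other measured ligands of T cells and phagocytes, 5 rose with BO-112 and 1 fell, 0 passed with DMXAA and 1 rose with both agents. Among all genes 7.64% rose and 4.31% fell with BO-112, and 2.49% rose with both agents. With DMXAA 4 had an unadjusted limma p under 0.05, as did 18.1% of all genes, and limma-voom called 0. The median difference of the list was 0.57 with BO-112, 0.33 with DMXAA and 0.22 with both. Cd200, an inhibitory ligand for myeloid cells, rose by 1.94 ± 0.20 with BO-112 (limma adjusted p = 2.06e-05) and by 1.29 ± 0.20 with both (limma adjusted p = 0.00207), and its interaction was -1.31 ± 0.28 (limma adjusted p = 0.0343), the same direction as that of Lgals9. Pvr (CD155), which binds TIGIT and DNAM-1, rose by 1.24 ± 0.22 (limma adjusted p = 0.00138), and Tnfsf9, the ligand of 4-1BB, by 1.05 ± 0.19 (limma adjusted p = 0.00154). Vsir (VISTA), an inhibitory ligand of myeloid cells, fell by 0.86 ± 0.16 on the log2 scale (limma adjusted p = 0.00269). Vtcn1 and Fgl1 have no row in the table used here.

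Marker genes of cell types that can carry these ligands moved as well. Whether the numbers of these cells changed, and their part in the results, was not tested. The summed level of 12 macrophage markers ranged over 4295 to 5208 CPM in vehicle, 4250 to 5881 in BO-112, 4235 to 8878 in DMXAA and 4113 to 5419 CPM in combined tumours. Of these markers, Fcgr1 rose with BO-112 and Csf1r, Mrc1 and Cd163 fell. For this and the marker lists below, 7.64% of all genes rose and 4.31% fell with BO-112. Relative to the mean of the macrophage genes Adgre1, Csf1r and Cd68 in the same tumour, the log2 level of Cd274 was -2.80 to -1.41 in vehicle and 0.29 to 0.64 in BO-112 tumours, and those of Cd40, Cd80, Cd86, Lgals9 and Cd47 did not overlap between these groups either. Since Csf1r fell, the ratios were also taken, after the data were seen, over Adgre1 and Cd68 alone and over all 12 markers, and the same 6 ligands did not overlap. These 6 already lay apart with no denominator, where 18.1% of all genes had BO-112 tumours wholly above vehicle. No such share of all genes was taken for the ratios. The mean difference of Cd274 between BO-112 and vehicle was 2.43 over the 3 genes, 2.20 over Adgre1 and Cd68 and 2.84 over all 12. It was 2.34 with no denominator. The 12 markers still hold Csf1r, Mrc1 and Cd163, whose fall raises a ratio over them, so that ratio is no remedy for the fall of Csf1r.

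The 9 measured mature dendritic cell markers summed to 635 to 720 CPM in vehicle, 891 to 1124 in BO-112, 648 to 727 in DMXAA and 732 to 890 CPM in combined tumours. With BO-112 5 of them rose, among them Ccr7 (the lymph node homing receptor) by 2.11 ± 0.32 (limma adjusted p = 0.000531), Relb and Traf1, which the CD40 list also holds, Samsn1 and Ccl22. Traf1 and Relb had means of 99.8 and 65.7 CPM with vehicle and 208 and 130 CPM with BO-112. Fscn1 had 377 and 402 CPM in these groups, and Cd83 had 28.1 and 24.6 CPM. The 10 conventional dendritic cell markers summed to 191 to 224 CPM in vehicle and 170 to 199 CPM with BO-112, where 1 fell, Clec10a. The 8 monocyte markers summed to 566 to 800 CPM in vehicle and 1168 to 1234 CPM in BO-112 tumours, and to 695 to 1352 and 807 to 1070 CPM with DMXAA and both. Of these 8, BO-112 raised 4, among them Ms4a4c, Ly6c2 and Plac8, and lowered Ccr2. Means with vehicle and with BO-112 were 53.6 and 396 CPM for Ms4a4c, 16.0 and 190 for Ly6c2 and 18.4 and 156 for Plac8. They were 165.5 and 58.1 CPM for Ccr2, 329 and 297 for Vcan and 66.6 and 20.6 for Chil3. DMXAA raised 3 and both agents raised 4, and Ms4a4c, Ly6c2 and Plac8 were among them each time. Among all genes 1.25% were called with DMXAA in either direction, and 2.49% were higher with both agents. The 10 neutrophil markers summed to 144 to 192 CPM in vehicle, 313 to 378 in BO-112, 127 to 311 in DMXAA and 191 to 459 CPM in combined tumours, and Ly6g was at 0 in all vehicle tumours. Against vehicle 4 of them rose with BO-112, among them S100a9 and Clec4d, 3 rose with DMXAA, where Mmp9 fell, and 5 rose with both agents. Clec4d had means of 6.37 CPM with vehicle and 105 CPM with BO-112. The 11 T cell markers summed to 56.3 to 127 CPM in vehicle and 61.3 to 93.8 CPM in BO-112 tumours. Limma and limma-voom called 0 of the 11 against vehicle in the 3 treated groups. With DMXAA 1 had an unadjusted limma p under 0.05, as did 18.1% of all genes. MC38 derives from a colon carcinoma, and of 8 epithelial markers Krt8, Krt18 and Cldn7 have no row in the table used here, while the other 5 summed to 28.3 to 85.7 CPM in vehicle and 7.72 to 12.4 CPM in BO-112 tumours. Most of that sum was Cdh1, at means of 45.2 CPM with vehicle and 8.39 CPM with BO-112, while Krt19 and Krt20 had means below 1 CPM in both groups, higher with BO-112.

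**Figure D5:**
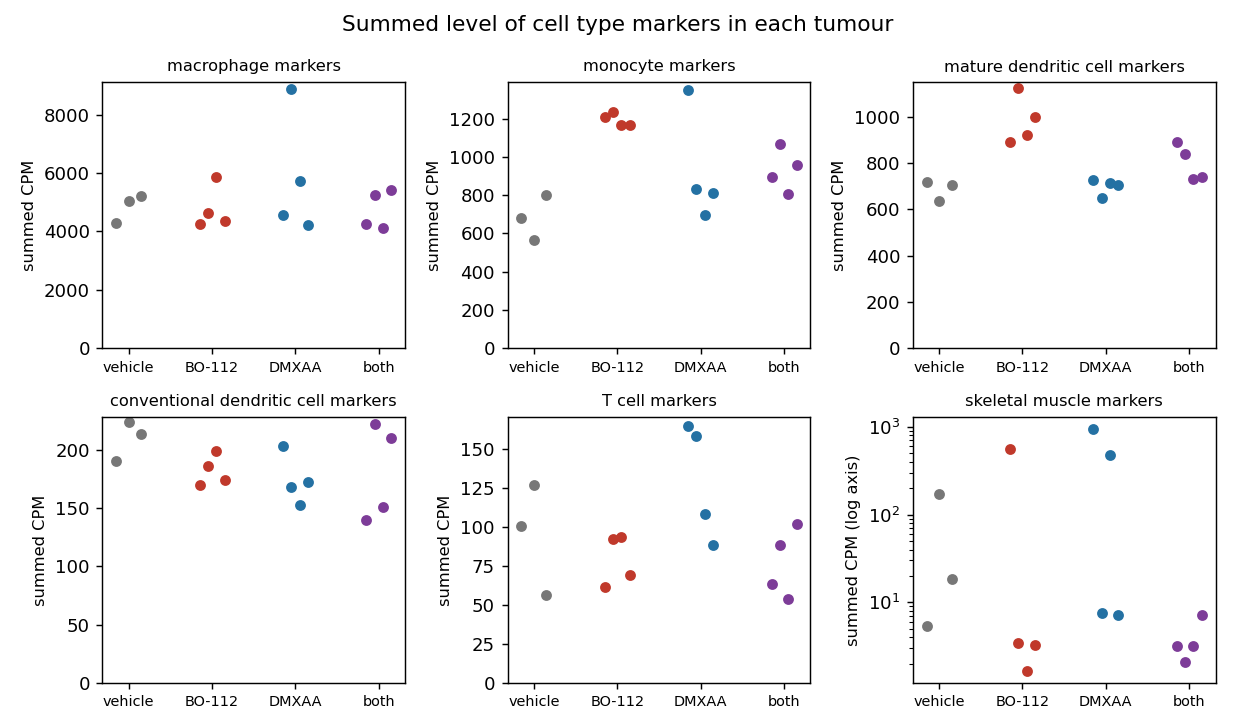
Summed level of 6 cell type marker lists in every tumour, in CPM by group, on linear axes from 0 except for skeletal muscle (log axis); points are tumours. The mature dendritic cell and monocyte sums of the BO-112 tumours lie above those of the vehicle tumours, and the macrophage sums of the groups overlap.

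Of 13921 other genes with a symbol and a mean of at least 1 CPM, those whose log2 level was most like that of Cd274 over the 15 tumours were Slfn8 (Pearson r = 0.986), Gm5431 (0.985), Gm6545 (0.985), Stat2 (0.985) and Znfx1 (0.982). Stat2 encodes a part of the transcription factor that acts below the type I interferon receptor. For Lgals9 they were Phf11a (0.987), Isg20 (0.987) and Phf11b (0.984), for Cd86 Slc15a3 (0.958), Trafd1 (0.95) and Samhd1 (0.95), and for Cd80 Gcnt2 (0.961), Serpinb6b (0.958) and Ptafr (0.953). Those most like Cd40 were Slc25a22 (0.976), Enpp4 (0.974) and the NF-kappaB subunit Relb (0.974), and those most like Cd47 were Stxbp3 (0.983), the NF-kappaB inhibitor Nfkbia (0.977) and Nr1h3 (0.959). Pdcd1lg2 was most like Clec7a (0.86), Tfec (0.859) and Mgl2 (0.841), of which Clec7a and Mgl2 encode lectins of macrophages and dendritic cells. For Icosl they were Man2b1 (0.867), Slc9a7 (0.865) and Dnd1 (0.845), and for Cd276 Hic2 (0.909), Lipa (0.896) and Lnx2 (0.895). These r values keep the differences between groups, so genes that moved alike with treatment score high. Cd274 and Cd40 had r = 0.828 in this way, against 0.028 after group means were taken away. Shared regulation was not tested.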

How the data were processed

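Messenger RNA of 15 tumours was sequenced as paired reads of 150 bp from a stranded library, per the labels' protocols. The submitters' processing notes name STAR, the mm39 build, edgeR and limma, with no versions or settings. The authors' deposited table holds log2 CPM for 17712 genes, with 0.5 reads added before the log and scaled library sizes (factors 0.85 to 1.08). Whole reads were recovered for 100% of values within 1e-06. A deposited raw count table names no samples, and its 15 columns were not used. Symbols (17636 genes) and exon lengths came from GENCODE M21 and promoter windows from RefSeq on GRCm38.p6, another build than the authors', by identifier and symbol only.

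Limma 3.58.1 in R 4.3.3, with an intensity trend and robust moderation, was fitted to the deposited log2 values with 1 mean per group, giving 6 pairwise comparisons and the interaction. Adjustment ran over all genes within a comparison. The fit was also run on simulated counts, with the same spread set for all genes and tumours and changes in the BO-112 group only. Those counts do not mimic the uneven DMXAA tumours, so nothing is concluded from them here. P-values measure the spread between tumours, and whether each came from its own mouse is not stated. Named genes are all 9 ligands, their receptors, and of each other pathway list the 3 with the smallest adjusted p among those called, with the first in the other direction. Some genes that this rule names are not reported here. Marker genes named follow the same rule except where a whole call list is given. The ligands and the 17 gene lists were chosen with earlier results of these data known, and ratios between genes and the group order were looked at after the values were seen. The alternatives were 12 settings (scaling, filter, limma-voom, replicate block, groups fitted, weights, length trend, pseudocount, moderation and libraries left out) and leaving out each of the 15 tumours. The correlations inside groups without DMXAA tumours 2 and 3 and the other macrophage denominators were added after the data were seen.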

Additional observations from a re-analysis of the deposited data

Results flagged for a closer look

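The interaction of Lgals9, which tests whether its change with DMXAA differed between tumours with and without BO-112, passed the threshold, at -1.08 ± 0.17 on the log2 scale (limma adjusted p = 0.0106). The call held in 24 of 26 analyses, and ended with scaling by total count and without the 4 tumours high in muscle genes. Its means were 93.8 ± 10.4 CPM with vehicle (SD, n = 3) and 137 ± 17.6 CPM with DMXAA (SD, n = 4), against 243 ± 20.6 CPM with BO-112 and 168 ± 19.4 CPM with both agents (SD, n = 4 each). In each of the 27 groups of 4 tumours tested, 1 for each ligand and treated group, no tumour lay apart beyond the 95% critical value of Dixon's test. In groups of 4 this test cannot flag a pair that lies apart together, such as DMXAA tumours 2 and 3 for Cd274. Vehicle groups were not tested.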

How the results depend on the processing

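BO-112 against vehicle kept the calls of the same 6 ligands in all 27 analyses, with Cd274 between 1.97 and 2.69 and Cd40 between 2.35 and 2.83. It gained Pdcd1lg2 and Icosl with only the groups compared fitted (8 ligands), Icosl with array quality weights (7) and Pdcd1lg2 without DMXAA tumours 2 and 3 (7), each lower. In these settings 4320, 5006 and 4439 of the 17712 genes were called, in that order, against 2116 as reported. No called ligand changed sign. Of 1692 values 1620 kept their side of the threshold, of which 26, never called, changed sign, while 31 lost a call and 41 gained one. DMXAA against vehicle called 1 ligand with a filter of at least 1 CPM in 4 libraries, 1 with array quality weights, 2 without DMXAA tumours 2 and 3, and 0 to 1 with each tumour left out in turn. Both agents against vehicle called 1 to 5 with each tumour left out. Both agents against BO-112 called 2 when only the groups compared were fitted, 2 with array quality weights and 1 without DMXAA tumours 2 and 3. Both agents against DMXAA called 1 with scaling by total count, 1 with array quality weights, 1 with the trend on transcript length removed, and 0 to 2 with each tumour left out (2 without DMXAA tumour 1 or 4, 1 without DMXAA tumour 2). BO-112 against DMXAA called 5 to 6 with each left out. The interaction called 0 with scaling by total count, 0 without the 4 tumours high in muscle genes, 3 with array quality weights, 4 without DMXAA tumours 2 and 3, and 1 to 2 with each left out (2 without vehicle tumour 2). Over all genes, the number called ran over the alternatives from 1090 to 5006 for BO-112 against vehicle (2116 as reported), 4 to 376 for DMXAA (221), 246 to 1403 for both agents (473), 0 to 362 for both against BO-112 (0), 0 to 1765 for both against DMXAA (157), 791 to 5898 for BO-112 against DMXAA (3783) and 36 to 710 for the interaction (239). The cause of these shifts was not tested. Deviations of same-numbered tumours of different groups had a mean r of 0.0152 over 21 pairs, from -0.212 to 0.255. Over 63 other pairs the mean r was -0.00509, from -0.298 to 0.29. A mean over all genes cannot exclude pairing by number or a shared batch. With the replicate block 1 ligand was called for DMXAA against vehicle (Lgals9), 1 for both agents against DMXAA and 2 in the interaction. The lowest count of a ligand was 48 reads, for Pdcd1lg2.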

Other observations

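Genes named here were picked after their values were seen. Among all genes 7.64% rose and 4.31% fell with BO-112, and 2.49% rose with both agents. Of 10 endothelial markers Kdr, the main receptor of VEGF, rose with BO-112 and with both agents, and of 9 fibroblast markers Dcn rose with BO-112. Among the other endothelial markers, Vwf, Tie1 and Tek had lower means with BO-112 than with vehicle. Pecam1, Cdh5, Flt1, Erg, Emcn and Cldn5 had higher ones. Of the 5 measured epithelial markers Krt20 rose and Epcam and Cdh1, which encode adhesion molecules, fell with BO-112. Of the 5 measured B cell markers Pax5 rose with BO-112 and with both agents, and its mean was 0.268 CPM with vehicle and 3.98 CPM with BO-112. The other B cell markers were not called with BO-112 (limma adjusted p = 0.201 to 0.996). Their differences were 1.39 for Ms4a1, -0.01 for Cd79a, -0.14 for Cd79b and -0.35 for Cr2. Limma and limma-voom called 0 of 8 adipocyte and 0 of 10 skeletal muscle markers against vehicle. At an unadjusted limma p under 0.05 there were 0 muscle markers, and 3 adipocyte markers with DMXAA, where 18.1% of all genes passed. Muscle sums ran from 1.66 to 563 CPM among BO-112 tumours and from 7.26 to 939 CPM among DMXAA tumours. Adipocyte sums ran from 11.8 to 14.9 CPM in vehicle and from 8.68 to 88.6 CPM in combined tumours. They ran from 8.71 to 311 CPM among BO-112 tumours and from 14.9 to 350 CPM among DMXAA tumours, highest in tumour 2 of each group.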
